A study of Mus musculus with 15 samples.

Results

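The miR-200 family, which includes miR-141 and miR-429, was followed in mouse liver across a standard diet, caloric restriction and metformin feeding. Its members were taken as every miRNA on the array named miR-200a, miR-200b, miR-200c, miR-141 or miR-429 with a 5p or 3p arm, which gave 9 of 696 mouse miRNAs, 5 of them 3p arms and 4 of them 5p arms. The choice used names alone and no measured value, and the prefix mmu, for mouse, is left off below where a name is repeated. miR-429-5p was not analysed here. The 9 members were read by 25 probes on 180 spots, with 20 spots and 2 to 4 probes for each member.

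Livers came from 15 male mice of a strain that the labels give as B6C57/J, 1 year old when the diets began, with 1 array per mouse. The 5 SD mice had free access to the AIN-93G standard diet. The 5 CR mice received the same diet at a 40% restriction. The 5 Met mice ate AIN-93G freely with 0.1% w/w metformin, an antidiabetic drug, mixed into it. All mice stayed on their diet for life, and nothing in the sources used here names a transgene or deletion. RNA was taken from whole liver, so that fewer cells of a type and less RNA per cell cannot be told apart. The scanner software detected between 151 and 205 miRNAs per array, with the fewest in CR mouse 3 (151) and CR mouse 2 (167). All SD arrays lay on slide 1 and all CR arrays on slide 2, while Met mice 1 to 3 were on slide 1 and Met mice 4 and 5 on slide 2. Diet and slide can therefore be separated only through Met. miR-122-5p, the most abundant miRNA of hepatocytes, was detected on all 15 arrays.

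The miR-200 family is best known for keeping epithelial cells epithelial. Its members bind the mRNAs of the repressors Zeb1 and Zeb2, which shut off E-cadherin, and Zeb1 and Zeb2 in turn repress the miR-200 genes. In liver the family is associated with the epithelium of the bile ducts more than with hepatocytes.

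The family arises from 2 genomic clusters, and its seeds cross them. RefSeq places Mir429 at chr4:156053905-156053987, Mir200a at chr4:156054896-156054985 and Mir200b at chr4:156055681-156055750, all on the minus strand of GRCm38.p6, within 1846 bases. The annotated gene Gm13648 overlaps all 3, and the nearest protein-coding genes are Ttll10 and 9430015G10Rik. Mir141 at chr6:124717914-124717985 and Mir200c at chr6:124718322-124718390, also on the minus strand, lie within 477 bases between Phb2 and Ptpn6, and no other annotated gene overlaps them. The array annotation refers to an older build and gave no position used here. All 9 members matched a RefSeq mature sequence by name. The 3p arms are shown because only 3p arms were detected, and because they show which members the seed and the cluster group together. Each reads 5′ to 3′, with the seed, bases 2 to 8, in capitals.
mmu-miR-200b-3p: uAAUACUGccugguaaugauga
mmu-miR-429-3p: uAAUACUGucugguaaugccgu
mmu-miR-200c-3p: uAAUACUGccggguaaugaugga
mmu-miR-200a-3p: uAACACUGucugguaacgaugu
mmu-miR-141-3p: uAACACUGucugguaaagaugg

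miR-200b-3p, miR-429-3p and miR-200c-3p shared 1 seed, while miR-200a-3p and miR-141-3p shared another. The closest pairs thus came from different chromosomes. miR-200b-3p and miR-200c-3p differed at 2 of the 22 bases compared, as did miR-200a-3p and miR-141-3p, whereas miR-200b-3p and miR-200a-3p of the same cluster differed at 4. How far a probe for one of these miRNAs also binds its near relative was not tested.

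Detection differed between the clusters. The software calls a miRNA detected when the signal of at least 1 of its probes exceeds 3 times its error, a rule that gave the same answer in all 10440 flags compared. miR-200b-3p was detected on 12 of 15 arrays and miR-200a-3p on 5 of 15. For each, these counts rested on 1 probe. For miR-200b-3p, probe A_54_P2386 exceeded the limit on 12 arrays and its other probe, A_54_P2385, on 1. For miR-200a-3p, A_54_P1281 exceeded it on 5 arrays and A_54_P1282 on 0. miR-429-3p, miR-200c-3p, miR-141-3p and the 4 5p arms were detected on none. No member was detected on all 15 arrays, and the miR-200c/miR-141 cluster had no detected member in any mouse.

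**Figure D1:**
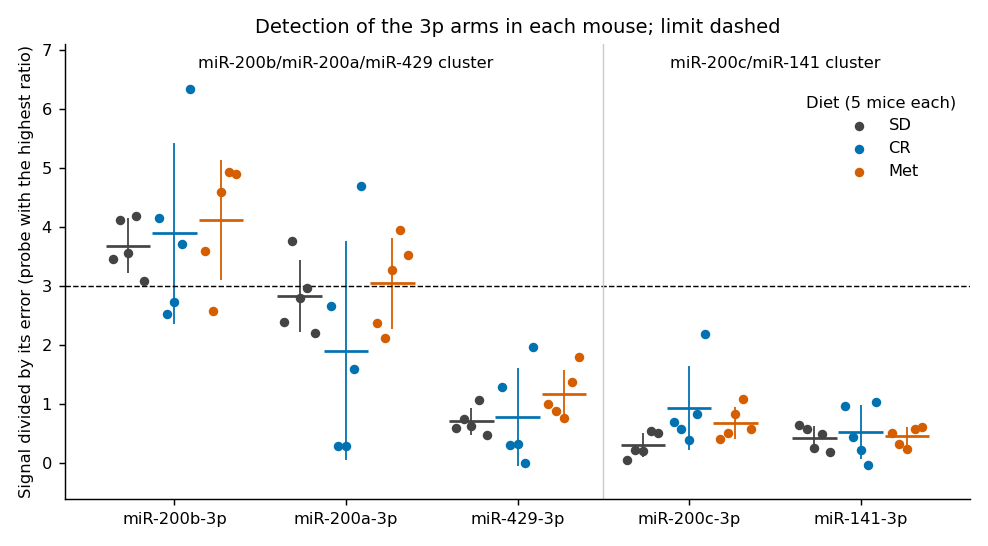
For each 3p arm, the vertical axis gives the signal of a probe divided by its error, for the probe with the highest ratio, in each mouse (points), with the mean (bar) and standard deviation (line) of 5 mice per diet. The dashed line is the detection limit of 3, which 12 miR-200b-3p and 5 miR-200a-3p points exceed, and which no point of miR-429-3p, miR-200c-3p or miR-141-3p reaches.

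For mmu-miR-200b-3p the highest signal-to-error ratio among its probes was 3.46, 4.12, 3.56, 4.18 and 3.10 in SD mice 1 to 5. It was 4.16, 2.53, 2.73, 3.72 and 6.35 in CR mice 1 to 5. In Met mice 1 to 5 it was 3.60, 2.59, 4.60, 4.94 and 4.90. The miRNA was thus detected in 5 of 5 SD, 3 of 5 CR and 4 of 5 Met mice, and the ratios of the diets overlapped. CR mouse 5 was the highest of all 15, and CR mouse 2 the lowest.

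mmu-miR-200a-3p, from the same cluster with the other seed, was detected in 1 of 5 SD mice (mouse 2), 1 of 5 CR mice (mouse 5) and 3 of 5 Met mice (mice 3 to 5). Its ratio was 2.40, 3.77, 2.81, 2.97 and 2.21 in SD mice 1 to 5. It was 2.67, 0.297, 0.298, 1.59 and 4.70 in CR mice 1 to 5, and 2.38, 2.13, 3.28, 3.95 and 3.52 in Met mice 1 to 5. Most SD and Met arrays lay close to the limit on either side, whereas CR mice 2 and 3 lay far under it.

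No difference in detection between diets passed Fisher's exact test, two-sided and adjusted over all miRNAs whose detection varied. The unadjusted exact p was 0.444 for miR-200b-3p between CR and SD and 1 in its other comparisons. For miR-200a-3p it was 0.524 in either comparison with Met and 1 between CR and SD, and every adjusted p was 1. At an adjusted p of 0.3 or less the test called 0 members. The share called over all miRNAs was 0% in each case, of 60 for Met against SD, 83 for CR against SD and 67 for CR against Met. With 5 arrays per diet the smallest exact p is 0.00794, reached at 5 of 5 against 0 of 5. For a lone miRNA that is an adjusted p of 0.476 or more over the 60 to 83 miRNAs tested, so no miRNA could have passed on its own and the 0 calls say nothing about the diets. The counts also moved with the limit. Above a ratio of 2, miR-200b-3p would count as detected on 15 arrays and miR-200a-3p on 12, and above a ratio of 4 on 7 and 1.

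The other 3p arms stayed under the limit everywhere. The ratio of mmu-miR-429-3p, the remaining member of the chromosome 4 cluster, ran from 0.0129 to 1.98, with a median of 0.767. For mmu-miR-200c-3p it ran from 0.0644 to 2.19 (median 0.542) and for mmu-miR-141-3p from -0.02 to 1.03 (median 0.493). The highest value of each of these 3 was in CR mouse 5, the mouse that was also highest for miR-200b-3p and miR-200a-3p. The 5p arms, which are usually the less abundant strand of these hairpins, never exceeded 0.815.

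Single spots gave the same order of detection at finer grain. Each spot carries a mark for a signal that is positive and significantly above local background. This mark was set on 275 of 300 miR-200b-3p spots (91.7%), on 229 of 300 miR-200a-3p spots (76.3%) and on 115 of 300 miR-429-3p spots (38.3%). miR-200c-3p had it on 84 spots (28.0%) and miR-141-3p on 67 (22.3%). Negative control spots, which carry no mouse miRNA probe, had the mark on 13.1% to 37.3% of 434 spots per array, with a mean of 28.0%. miR-200c-3p and miR-141-3p, pooled over arrays, were therefore within the range of the negative controls and close to or below their mean. miR-429-3p was above that mean. CR mouse 5 stood apart, with the mark on 13 of 20 miR-200c-3p spots and 8 of 20 miR-141-3p spots. On that array 31.3% of negative controls had it. By diet, miR-429-3p had the mark on 31.0% of spots in SD, 37.0% in CR and 47.0% in Met. Of its 37 marked spots in CR, 18 were in CR mouse 5. The negative controls averaged 24.2%, 28.8% and 31.0%.

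Summed over the 3p arms, the miR-200b/miR-200a/miR-429 cluster had 619 of 900 spots marked (68.8%) and the miR-200c/miR-141 cluster 151 of 600 (25.2%). Within the chromosome 4 cluster the share was 70.3% in SD, 61.0% in CR and 75% in Met. Within the chromosome 6 cluster it was 21.5%, 27.5% and 26.5%. Marked spots per CR array ran from 22 to 58 in the first cluster and from 5 to 21 in the second. The chromosome 4 share was above the chromosome 6 share in each diet. The stricter mark of a spot well above background was set on 70 spots of the first cluster and 2 of the second. The 5p arms were marked on 7.0% of spots for miR-200b and miR-200a and on 8.83% for miR-200c and miR-141, less than the lowest array of the negative controls.

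**Figure D2:**
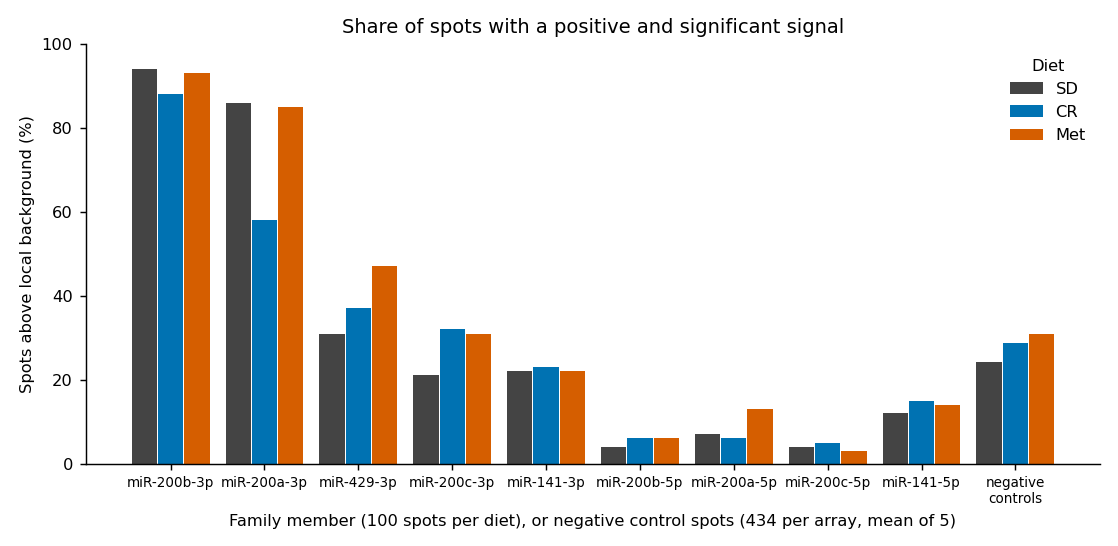
Bars give the percentage of spots whose signal was positive and significantly above local background, for each member in each diet (100 spots, 20 on each of 5 arrays) and for negative control spots (434 per array, mean of 5 arrays). With the 5 mice of a diet pooled, miR-200b-3p and miR-200a-3p stand above the negative controls in all 3 diets, and the 5p arms stand below them. miR-200a-3p is lowest in CR at 58.0%. In CR mice 2 and 3 it had only 4 and 3 of 20 spots marked, beside 29.0% and 29.3% of negative controls on those arrays.

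The signal of mmu-miR-200b-3p less its background, averaged over its spots in arbitrary fluorescence units, was 8.11, 11.7, 9.29, 16.4 and 11.3 in SD mice 1 to 5. In CR mice 1 to 5 it was 12.6, 6.97, 8.04, 7.39 and 20.1, and in Met mice 1 to 5 it was 11.1, 7.48, 12.9, 15.1 and 14.5. The means were 11.4 ± 3.17 in SD, 11.0 ± 5.57 in CR and 12.2 ± 3.08 in Met (± standard deviation over mice, n = 5 each). The diets overlapped, and the spread was widest in CR, where the highest mouse was 2.89-fold above the lowest, against 2.02-fold in both SD and Met.

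mmu-miR-200a-3p gave 6.51, 9.63, 7.01, 10.9 and 8.76 in SD mice 1 to 5 on the same scale. It gave 8.50, 0.952, 0.921, 3.97 and 13.7 in CR mice 1 to 5, and 6.78, 6.74, 8.96, 12.5 and 10.7 in Met mice 1 to 5. CR again had the widest spread, with a mean of 5.61 ± 5.49 against 8.57 ± 1.83 in SD and 9.14 ± 2.5 in Met (n = 5 each). CR mice 2 and 3, at the bottom for miR-200a-3p, were the arrays with the fewest detected miRNAs, and the part of that in these values was not tested.

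**Figure D3:**
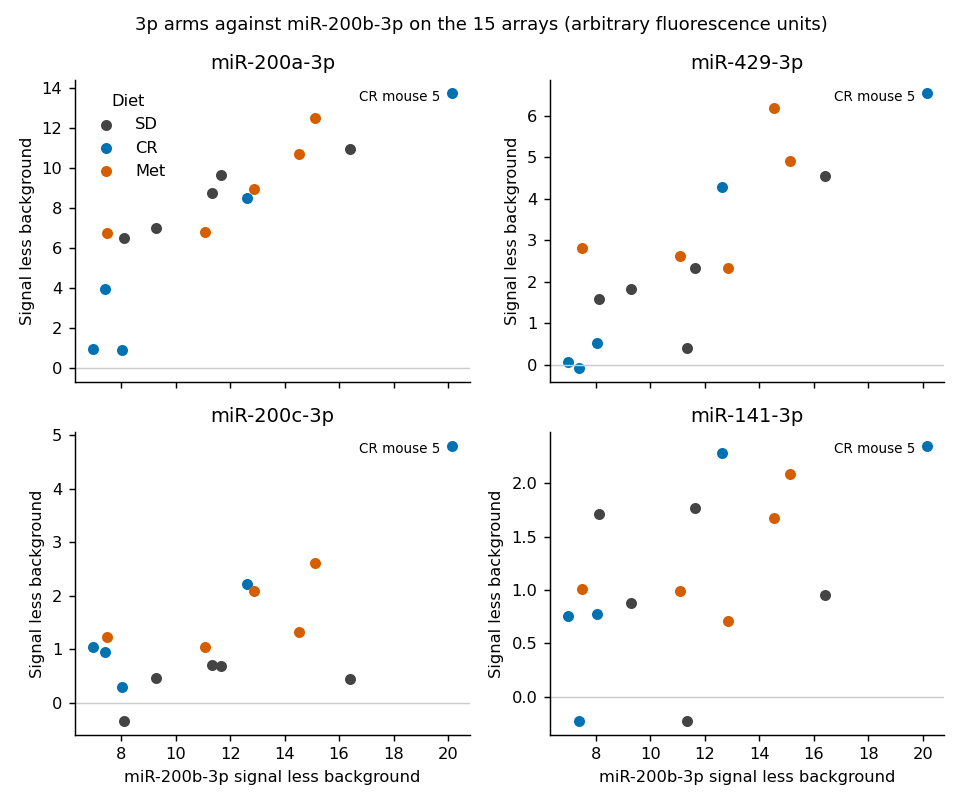
Each panel plots the background-subtracted signal of a 3p arm (vertical axis) against that of miR-200b-3p (horizontal axis) on the 15 arrays, in arbitrary fluorescence units, coloured by diet. miR-200a-3p and miR-429-3p climb with miR-200b-3p, and CR mouse 5 lies at the top right of all 4 panels.

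Across mice, the cluster mates followed miR-200b-3p. Pearson's r of background-subtracted signals over the 15 arrays was 0.879 for miR-200a-3p and 0.854 for miR-429-3p. After each diet's mean was subtracted these were 0.930 and 0.873, and without CR mouse 5 they were 0.860 and 0.803. miR-429-3p, although never detected, thus varied with miR-200b-3p from array to array. For miR-200c-3p, on the other chromosome but with the same seed, r was 0.703 over all arrays, 0.833 after each diet's mean was subtracted and 0.448 without CR mouse 5. For miR-141-3p these values were 0.543, 0.542 and 0.406. Within diets miR-200c-3p thus lay close to miR-429-3p, and the order of the members was not tested. For the 5p arms r over all arrays lay between -0.22 and 0.275. These values are descriptions over arrays that share slides, scans and a near-background range of brightness. With the number of miRNAs detected on an array, r was 0.315 for miR-200b-3p and 0.565 for miR-200a-3p.

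Diets were compared on z-scores, with ± again the standard deviation over mice. A z-score is the natural log of the spot signal set to the mean and spread of its array, without background subtraction. The main test held the 178 of 696 miRNAs that every array of some diet detected. miR-200b-3p was the 1 member of 9 that passed, through its detection in all SD mice. A call required a limma p of 0.05 or less, a Benjamini-Hochberg adjusted p of 0.3 or less and a Z ratio of at least 1.5 in size. The Z ratio is the difference between diets divided by the standard deviation of such differences over all mouse miRNAs.

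The z-score of miR-200b-3p averaged -0.204 ± 0.0333 in SD, -0.160 ± 0.0364 in CR and -0.200 ± 0.0431 in Met (n = 5 each). No comparison met the criteria. Met and SD differed by 0.00391 (SE 0.0224, 95% confidence interval -0.0436 to 0.0514, Z ratio 0.0642, limma adjusted p = 0.930). The members called were 0 of 1 tested, and 1.12% of the 178 miRNAs were called. CR lay 0.0442 above SD (95% confidence interval -0.00335 to 0.0917, Z ratio 0.266, limma adjusted p = 0.151), again with 0 of 1 called against 17.4% of all tested. CR lay 0.0403 above Met (95% confidence interval -0.00725 to 0.0878, Z ratio 0.260, limma adjusted p = 0.164), with 0 of 1 called against 20.8%. In both comparisons with CR a decrease could not have been called on this scale. The standard deviation that divides the difference was 0.166 against SD and 0.155 against Met. Negative controls averaged -0.321 in SD and -0.309 in Met. A fall of miR-200b-3p to their level would be smaller than that standard deviation. The required Z ratio lies beyond such a fall, so the 0 calls say nothing about a decrease in CR. The intervals hold small differences in either direction, so these data do not show that the diets were alike.

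**Figure D4:**
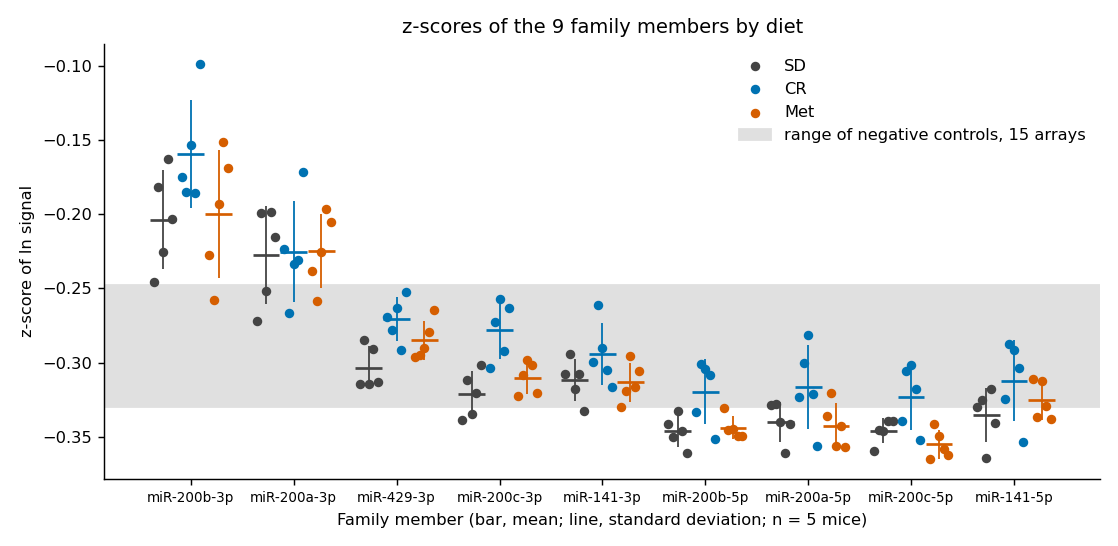
The vertical axis gives the z-score of each member in each mouse (points), with the mean (bar) and standard deviation (line) of 5 mice per diet, and the grey band is the range of the negative controls over the 15 arrays, from -0.330 to -0.248. Most miR-200b-3p and miR-200a-3p points lie above the band, while every point of the other members lies within or below it. The controls differ between arrays, so a place above or within the band does not show detection. miR-200a-3p in CR mouse 3 lies above it at -0.234, with the controls of that array at -0.248. miR-429-3p in CR mouse 5 lies within it at -0.253, with the controls of that array at -0.311.

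The higher z-scores in CR were shared with spots that carry no miRNA probe. Negative controls averaged -0.321 in SD, -0.284 in CR and -0.309 in Met. Without the detection filter, 9 of 9 members lay above SD in CR, as did 81.6% of all 696 miRNAs, and the median difference was 0.0236 over the members and 0.0270 over all miRNAs. In that fit 8 of the 9 members had a limma adjusted p of 0.3 or less between CR and SD, beside 80.5% of all miRNAs, but no member's Z ratio exceeded 0.266. As given above, a decrease of miR-200b-3p in CR could not have reached the required Z ratio. The other members lay lower still in SD and Met. No member met all criteria. Of the 696 miRNAs 0.144% did so for Met against SD, 3.88% for CR against SD and 4.89% for CR against Met. For the 7 members never detected, no difference of a single member is given, since both sides lay under the detection limit. The counts and the median over the 9 members rest mostly on these 7.

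For miR-200a-3p the unfiltered z-scores averaged -0.227 ± 0.0330 in SD, -0.225 ± 0.0343 in CR and -0.225 ± 0.0250 in Met (n = 5 each). CR differed from SD by 0.00214 (limma adjusted p = 0.927) and Met from SD by 0.00258 (limma adjusted p = 0.998). CR differed from Met by -0.000436 (limma adjusted p = 0.983). Their 95% confidence intervals reached about as far on either side, from -0.0376 to 0.0419 between CR and SD. On the log2 scale of background-subtracted signal, scaled to detected probes, CR differed from SD by -0.40 in the unfiltered fit (95% confidence interval -1.20 to 0.41, limma adjusted p = 0.621). Probe values under 0.01 of the 75th percentile of detected probes were set to that floor, which bounds how low a dim array can fall. On that scale miR-200b-3p was 0.45 higher in CR than in SD in the same fit (95% confidence interval -0.17 to 1.07, limma adjusted p = 0.491), and neither was called. Before scaling, the mean signal of miR-200b-3p less background was 11.0 in CR and 11.4 in SD, so it was not higher in CR. For miR-200a-3p these means were 5.61 and 8.57. The part of the scaling in both differences was not tested.

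**Figure D5:**
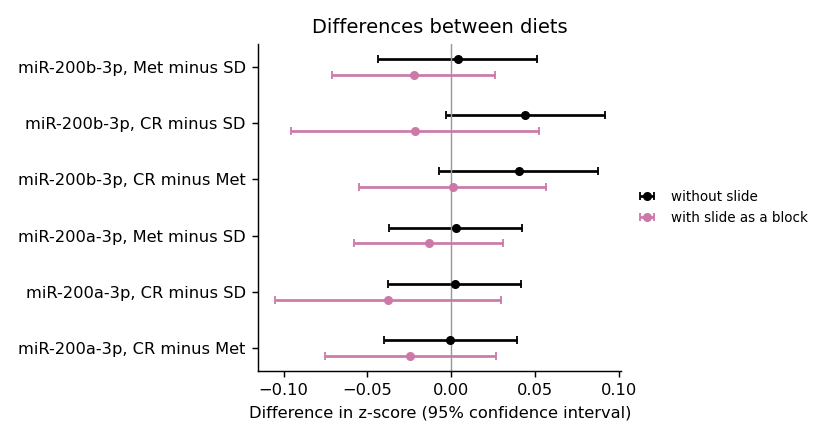
Points give the difference in mean z-score between diets, with 95% confidence intervals, for miR-200b-3p (filtered fit) and miR-200a-3p (fit without the detection filter), 5 mice per diet. Black is the fit on diet alone and pink the fit with slide as a block, and every interval includes 0.

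The small differences of miR-200b-3p changed when slide entered the fit. With slide as a block, the difference between CR and SD was -0.0216 (95% confidence interval -0.0958 to 0.0526) and that between Met and SD -0.0224, both opposite in sign to the fit on diet alone. Within slide 2 the Z ratio between the 5 CR and 2 Met mice was 0.00483, and within slide 1 that between 3 Met and 5 SD mice was -0.419. When arrays were scaled on the 75th percentile of detected probes instead, the median of all 696 miRNAs shifted by 0.47 on the log2 scale in CR against SD and by 0.39 against Met. Under it miR-200b-3p met the criteria in CR against SD (0.48, limma adjusted p = 0.0132) and against Met (0.40, limma adjusted p = 0.0357), and 67.4% and 65.2% of the 178 miRNAs tested were called with it. The median shift over those 178 miRNAs was 0.37 against SD and 0.30 against Met. With the filter also lifted, all 9 members, those never detected included, were called in both comparisons. So were 92.0% of all 696 miRNAs in CR against SD and 91.1% in CR against Met. Without CR mice 2 and 3 the Z ratio of miR-200b-3p was 0.439 against SD and 0.494 against Met, still under 1.5.

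Other miRNAs typical of epithelia were measured beside the family. Of a list of 7, miR-203-3p and miR-31-5p were detected on every array, and miR-205-5p, miR-375-3p, miR-182-5p, miR-183-5p and miR-96-5p on none. The summed total gene signal of the list, the software's background-subtracted sum over probes above the detection limit, ran from 118 to 165 in SD, from 57.3 to 151 in CR and from 126 to 148 in Met. The other lists, in the same order of diets, summed to 18758 to 29611, 10508 to 27657 and 24605 to 29812 for 3 hepatocyte miRNAs. They summed to 108 to 194, 18.7 to 158 and 111 to 217 for 5 leukocyte miRNAs, and to 620 to 886, 216 to 839 and 665 to 877 for 2 endothelial miRNAs. The 5 fibroblast, stellate and smooth muscle miRNAs summed to 171 to 229, 60.7 to 336 and 178 to 251, and 2 erythroid miRNAs to 265 to 726, 33.9 to 788 and 291 to 621. Every list reached its lowest value in CR, and the part of tissue makeup or array brightness in the family's values was not tested.

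Of the 139 miRNAs detected on all arrays, those whose z-scores followed miR-200b-3p most closely over the 15 arrays were miR-125a-5p (r = 0.590), miR-145a-5p (r = 0.563) and let-7e-5p (r = 0.531). After each diet's mean was subtracted r was 0.607, 0.388 and 0.583. These correlations cannot be ranked against that of miR-200b-3p with miR-200a-3p, which was computed on background-subtracted signal.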

How the data were processed

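Total RNA from liver was labeled with Cy3 and hybridized to 1-color Agilent mouse miRNA arrays, 1 per mouse. The authors deposited the scanner output of Feature Extraction 11.5.1.1, with the intensity of each spot on a linear scale, not normalized between arrays, and 0 or 1 flags for other spot properties. They also deposited a score for each spot, which equaled the z-score of its natural log median intensity within an array to within 0.0005. Here these z-scores were computed from the deposited intensities, control spots included. Outlier spots were left out, and spots of a probe, then probes of a miRNA, were averaged. The intensity of dim spots over background, and 5 arrays per diet, limit the precision. Diets came from the labels, which name separate mice.

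Comparisons used limma 3.58.1 in R 4.3.3 in 1 fit of 15 arrays, adjusted over all miRNAs tested. The limits for p, adjusted p and Z ratio come from the methods, which state them for a pairwise z-test. The limma step, tested on simulated data for Met against SD over 178 miRNAs, recovered a median of 36 of 40 changed by 0.4 in z-score, with 4 false. In the fit on diet alone no difference of miR-200b-3p exceeded 0.0442. The simulation therefore does not show how well changes of that size, or those with CR, are recovered. Tables were made in Python 3.11.15 with pandas 2.3.3 and numpy 2.4.6, Fisher's exact test was run in scipy 1.17.1, and plots were drawn in matplotlib 3.10.9. Sequences and positions came from RefSeq tables for GRCm38.p6. All members were named, along with miR-122-5p, the listed marker miRNAs and the 3 miRNAs most like the member detected on most arrays. Members, lists and tests were chosen with earlier results of these data known. The alternatives were other scalings, background corrections, filters, probe summaries, tests, blocks and the leaving out of each mouse. Those chosen after seeing the data were leaving out CR mice 2 and 3, detection limits of 2 and 4, and the alternatives combined with no filter.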

Additional observations from a re-analysis of the deposited data

Results flagged for a closer look

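A gap test within diets, run on the z-score and the background-subtracted signal of each member in each diet (54 groups of 5 mice), marked 2 values, where chance alone marks about 1 group in 20. The z-score of miR-200b-5p in Met mouse 1 was -0.331, apart from -0.350 to -0.344 in the other 4 Met mice. The background-subtracted signal of miR-200c-3p in SD mouse 1 was -0.341, apart from 0.448 to 0.709 in the other 4 SD mice. Neither miRNA was detected on any array.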

How the results depend on the processing

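No member was called between Met and SD under any alternative run. With arrays scaled on the 75th percentile of detected probes, 1 member, miR-200b-3p, was called in CR against SD and 1 in CR against Met. Of the 178 miRNAs tested, 67.4% and 65.2% were called there. With the filter also lifted, that scaling called 9 of 9 members in both, beside 92.0% and 91.1% of all 696 miRNAs. The other alternatives to the filtered fit called 0, also (0 to 0) when a mouse was left out. The replicate block left 0 members called in each comparison, and the Z ratio of miR-200b-3p at 0.0642, 0.266 and 0.260 for Met against SD, CR against SD and CR against Met. The numbers do not pair the mice: deviations of same-numbered mice correlated between -0.570 and 0.729, above 0.1 in 4 of 15 pairs.

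The Z ratio of miR-200b-3p between Met and SD changed sign with total gene signal (-0.291), slide as a block (-0.419), slide 1 alone (-0.419) and the leaving out of a mouse (-0.147 to 0.267, below 0 without SD mouse 1 or 3 or Met mouse 4 or 5). Between CR and SD it changed sign with slide as a block (-0.120), and ran from 0.153 to 0.347 without a mouse. Between CR and Met it ran from 0.139 to 0.352. The cause was not tested.

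For miR-200a-3p, fitted without the filter, the sign of the Z ratio changed with the setting in each comparison. Between Met and SD the value of 0.0424 became 1.07 with the 75th percentile of detected probes, 0.540 with background-subtracted signal, -0.250 with slide as a block or slide 1 alone, and -0.143 to 0.169 without a mouse. Between CR and SD the value of 0.0129 became -0.0717 (75th percentile of all probes), -1.08 (background-subtracted signal), -0.0199 (brightest probe), -0.0150 (outlier spots kept), -0.103 (quantile), -0.142 (normexp with an offset of 50), -0.210 (slide as a block) and -0.0596 to 0.0856 without a mouse, and 2.18, a call, with the 75th percentile of detected probes. Between CR and Met the value of -0.00281 became 2.05, also a call, with the 75th percentile of detected probes. It became -1.38 with background-subtracted signal, 0.171 without CR mice 2 and 3, and -0.0769 to 0.0748 without a mouse. Both calls came in the unfiltered fit that called most miRNAs, as given above.

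Total gene signal could not be fitted without the filter. Required on all arrays, detection left no member to test, and the fit of CR and Met alone held none. Signals at the detection limit leave only large changes measurable.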
